A study of Macaca mulatta with 34 samples.

Results

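SNORD115 and SNORD116 are clusters of small nucleolar RNA genes of the imprinted Prader-Willi region. The genes described here are all macaque Ensembl identifiers whose symbol starts with SNORD115 or SNORD116. There are 107 of them among the 34847 gene identifiers of the count tables, 72 of SNORD115 and 35 of SNORD116. The choice used the gene name alone and no measured value. The tables hold no gene coordinates of a stated build and no snoRNA sequence, so each gene is named by its identifier.

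Rhesus macaques received an injection, guided by magnetic resonance imaging, into the deep cerebellar nuclei (DCN), through which the cerebellum sends its output. In Study 1 the animals received either vehicle or AAV.miS1, a recombinant AAV2/1 (adeno-associated virus) vector with an RNA interference construct that had shown toxicity. In Study 2 they received empty capsid, which carries no vector genome, or capsids with the cargo intmiS1, miSCA7Stuffer or StufferOnly. Small RNA libraries of cerebellum were made for 3 AAV.miS1 and 3 vehicle samples of Study 1 and for 3 intmiS1 and 3 empty capsid samples of Study 2. Total RNA libraries of the DCN were made for 6 AAV.miS1 and 4 vehicle samples of Study 1 and for 3 samples of each of the 4 Study 2 groups. The labels give no age, time after injection or promoter for any group. Library numbers below are names and imply no order.

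Both families are C/D box snoRNAs, short RNAs named for their conserved C and D sequence boxes. Most C/D box snoRNAs guide the addition of a methyl group to the ribose of a target RNA, as part of a particle with the methyltransferase fibrillarin. SNORD115 and SNORD116 are processed from introns of a long transcript, SNHG14, which continues from the SNRPN promoter and is made from the paternal chromosome only. They are abundant in brain and in neurons in particular. SNORD115 has a stretch complementary to the serotonin receptor mRNA HTR2C, whereas SNORD116 has no well established target and is called an orphan snoRNA. Loss of the paternal SNORD116 cluster is tied to Prader-Willi syndrome.

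The libraries differed widely in depth and several stood apart. The Study 1 small RNA libraries held 4756968 to 10629988 gene counts. In 5 of the 6 Study 2 small RNA libraries only 347 to 2795 gene counts were recorded and 99.9462% to 99.9893% of reads were unmapped. The library labelled empty capsid 2 held 277509 sense counts and 31.7% unmapped reads, and its sense strand took 14.4% of stranded counts against 72.4% to 82.2% in the other 5. Its gene profile ran closer to the total RNA libraries than to any small RNA library (Spearman rho across genes 0.808 to 0.875 with the Study 2 DCN libraries, 0.257 to 0.597 with the Study 1 small RNA libraries), so it went against its small RNA label. Empty capsid small RNA libraries 1 and 3 differed by less than sampling noise over the 6 genes deep enough to compare, but their reads outside genes differed (1697 and 3261), and both were kept. In the DCN set of Study 1, vehicle library 2 held 87741 counts against 2049685 to 4810852 in the others. Neuron marker mRNAs summed to 2268 to 4004 RPM in the vehicle DCN libraries and 2979 to 3900 RPM in the empty capsid ones (RPM, reads of a gene per 1e6 gene counts of the library), and all 10 genes of that list had counts.

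In Study 1 small RNA, the 107 snoRNA genes took a large share of the library. SNORD115 took 4.60%, 5.57% and 5.79% of gene counts in vehicle libraries 1, 2 and 3, a mean of 5.32% ± 0.633 (SD, n = 3). It took 2.28%, 7.26% and 3.59% in AAV.miS1 libraries 1, 2 and 3, a mean of 4.37% ± 2.58 (SD, n = 3). AAV.miS1 library 2 was the highest of all 6, and AAV.miS1 libraries 1 and 3 were the lowest, so the groups overlapped. SNORD116 took 2.31%, 3.53% and 3.76% in vehicle and 2.22%, 3.73% and 2.31% in AAV.miS1, with means of 3.20% ± 0.777 and 2.76% ± 0.845 (SD, n = 3 each). The same 2 AAV.miS1 libraries and vehicle library 1 were the low ones for SNORD116. Counting error on these shares was small: the exact Poisson 95% interval of the lowest, SNORD116 in AAV.miS1 library 1, ran from 2.21% to 2.24%.

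Among C/D box snoRNAs the 2 families were dominant in these libraries. Of the counts in genes with a SNORD symbol, SNORD115 and SNORD116 together held 73.7%, 78.0% and 73.8% in vehicle and 68.4%, 72.1% and 72.2% in AAV.miS1, although 200 other genes carry a SNORD symbol. These percentages count gene copies of near-equal counts separately. With each set of such copies counted once, vehicle SNORD115 took 2.28%, 2.57% and 2.78% of gene counts instead of 4.60%, 5.57% and 5.79%. Vehicle SNORD116 then took 1.18%, 1.76% and 1.86% instead of 2.31%, 3.53% and 3.76%. The other C/D box snoRNAs outside the DLK1-DIO3 imprinted cluster summed to 2.23% ± 0.453 of gene counts in vehicle and 2.42% ± 1.02 in AAV.miS1 (SD, n = 3 each). SNORD113 and SNORD114, the paralogous clusters of the imprinted DLK1-DIO3 region, summed to 0.405% ± 0.0626 and 0.284% ± 0.117. SNORD115 exceeded SNORD116 by 1.99, 1.58 and 1.54 times in vehicle and by 1.02, 1.95 and 1.55 times in AAV.miS1. AAV.miS1 library 1 was the only library of the 6 where the families were near equal.

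**Figure D1:**
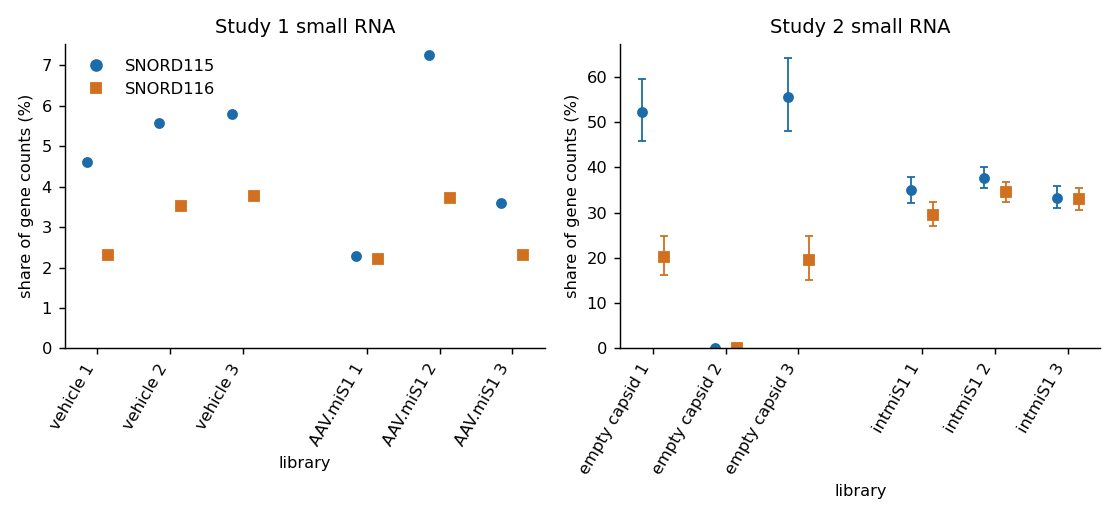
Share of gene counts (percent, y axis) taken by SNORD115 (circles) and SNORD116 (squares) in each small RNA library (x axis), Study 1 on the left and Study 2 on the right, with exact 95% Poisson intervals for counting error. In Study 1 the AAV.miS1 points lie both above and below the vehicle points, and in Study 2 the families lie apart in empty capsid 1 and 3 and close together in intmiS1, while empty capsid 2 is at 0.

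The genes of each family spanned a wide range. In Study 1 small RNA, 96 of the 107 had counts in all 6 libraries (67 of SNORD115 and 29 of SNORD116), and 3 were at 0 in all of them (1 and 2). The median SNORD115 gene had a mean of 618 RPM over the 6 libraries, and 56 of the 72 reached 100 RPM. The median SNORD116 gene had 4.23 RPM, and 10 of the 35 reached 100 RPM. SNORD116 therefore rested on few identifiers: 9 of its genes reached 1000 RPM, against 16 of SNORD115, which had a flatter profile.

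The highest 5 genes were all SNORD116. SNORD116 ENSMMUG00000060178 stood at 3772, 5885 and 6328 RPM in vehicle and 3334, 6311 and 3783 RPM in AAV.miS1. ENSMMUG00000054644, ENSMMUG00000054250 and ENSMMUG00000050681 had counts within 1% of it in every library. The fifth, SNORD116 ENSMMUG00000059952, stood at 3581, 5647 and 6055 RPM in vehicle and 3297, 6070 and 3429 RPM in AAV.miS1. For each of these 5 genes the low libraries were vehicle 1, AAV.miS1 1 and AAV.miS1 3. The highest SNORD115 gene, ENSMMUG00000056819, came sixth with 3095, 3570 and 4054 RPM in vehicle and 2037, 5486 and 2146 RPM in AAV.miS1. Here the vehicle libraries lay between AAV.miS1 library 2 above and AAV.miS1 libraries 1 and 3 below.

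Equal counts of this kind were frequent, and they limit what a single identifier shows. Of 77 genes with a mean of at least 100 counts, 38 fell into 11 sets of 2 or more whose counts agreed within 1% in every library. The largest set held 10 SNORD115 genes with a mean of 1054 RPM each, and the only SNORD116 set was the 4 highest genes. Near-equal counts are what near-identical gene copies give when a read is counted at each of them, and no label or file header says how the authors counted such reads. With each set counted once, SNORD115 took 2.28%, 2.57% and 2.78% in vehicle and 1.24%, 3.66% and 1.90% in AAV.miS1. SNORD116 then took 1.18%, 1.76% and 1.86% in vehicle and 1.22%, 1.84% and 1.18% in AAV.miS1. Leaving out copies can only lower these shares, and their denominator was still all gene counts, repeated copies included. The order of the 6 libraries within SNORD115 was kept.

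**Figure D2:**
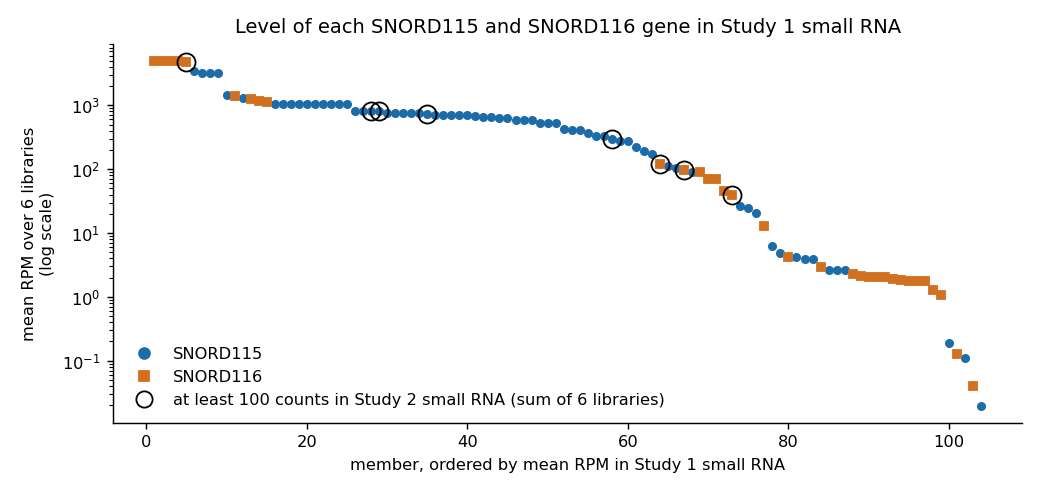
Mean RPM over the 6 Study 1 small RNA libraries (y axis, log scale) of the 104 snoRNA genes above 0, ordered from highest to lowest (x axis), SNORD115 as circles and SNORD116 as squares. Steps of equal height are sets of near-equal genes, and rings mark the 8 genes with at least 100 counts over the 6 Study 2 small RNA libraries, most of which are not at the top.

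Some single genes differed widely between libraries, in patterns that crossed the treatment groups. Across the 77 genes with a mean of at least 100 counts, the highest library exceeded the lowest by a median of 3.89 times for SNORD115 (range 1.72 to 156) and 1.90 times for SNORD116 (range 1.40 to 34.8). The following genes were picked after their values were seen, as those of widest spread. SNORD115 ENSMMUG00000065279 stood at 1.26, 197 and 2.03 RPM in AAV.miS1 libraries 1, 2 and 3 and at 2.02, 171 and 176 RPM in vehicle libraries 1, 2 and 3, a spread of 156 times. SNORD115 ENSMMUG00000049938 had the mirror pattern, with 425, 25.5 and 718 RPM in AAV.miS1 and 789, 23.9 and 20.3 RPM in vehicle. SNORD115 ENSMMUG00000055730 ran beside it, with 425, 26.5 and 719 RPM in AAV.miS1 and 790, 24.3 and 20.8 RPM in vehicle. Both patterns put vehicle library 1 with AAV.miS1 libraries 1 and 3.

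Another pattern belonged to SNORD116 ENSMMUG00000053417, at 70.0, 3.04 and 53.3 RPM in AAV.miS1 and 63.6, 78.6 and 2.26 RPM in vehicle. Here AAV.miS1 library 2 and vehicle library 3 were low. At the other end, SNORD116 ENSMMUG00000050171 stayed between 961 and 1345 RPM in all 6 libraries, a spread of 1.40 times.

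No SNORD115 or SNORD116 gene differed between AAV.miS1 and vehicle small RNA when all 6 libraries were fitted. Of 98 that passed the filter on low counts (68 and 30), 0 reached an adjusted p of 0.05 in edgeR's quasi-likelihood test, and 0 did so unadjusted. Over all genes 0 of 8311 were called, 0%, with 52 under 0.05 unadjusted, and DESeq2 called 0 with 143 unadjusted. The median log2 fold change was 0.16 for SNORD115 and 0.05 for SNORD116, beside 0.06 over all genes tested. The highest gene, ENSMMUG00000060178, had a log2 fold change of 0.08 (SE 1.22, adjusted p = 1.00 in edgeR). SNORD115 ENSMMUG00000056819 had 0.35 (SE 1.27, adjusted p = 1.00 in edgeR). These standard errors leave room for changes of more than 2-fold in either direction.

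That outcome turned on AAV.miS1 library 2. Without it, 71 of 98 genes were called, all lower in AAV.miS1: 59 of 68 SNORD115 and 12 of 30 SNORD116. Near-equal genes count separately in this tally. All 38 genes of the 11 near-equal sets are among the 71, so these are not 71 separate signals. Over all genes edgeR then called 642 of 10174, 6.31%: 5.91% of genes tested were lower and 0.403% higher. The median log2 fold change was -2.30 for SNORD115 and -1.46 for SNORD116, beside 0.03 over all genes. ENSMMUG00000060178 fell by 2.0 on the log2 scale (SE 0.43, adjusted p = 0.0173 in edgeR) and ENSMMUG00000056819 by 2.21 (SE 0.41, adjusted p = 0.0102 in edgeR). The largest fitted value, -7.44, was that of ENSMMUG00000065279, whose groups overlap through vehicle library 1.

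The size of this difference depended on the scale used. The TMM factors that set each library's scale ran from 0.376 in AAV.miS1 library 2 to 2.46 in AAV.miS1 library 1. With library totals in their place and library 2 left out, the median over all genes moved from 0.03 to 1.47, that of the snoRNA genes to -0.71, and 21 of them were called, 18 lower. The share of all genes called on that scale is not reported here, so these calls are not read as particular to the snoRNA genes. Relative to all genes the snoRNA genes lay lower by a similar amount on both scales. In the raw shares, AAV.miS1 libraries 1 and 3 lay at 2.28% and 3.59% for SNORD115, under all 3 vehicle libraries, and at 2.22% and 2.31% for SNORD116, beside 2.31% in the lowest vehicle library.

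AAV.miS1 library 2 differed from the other libraries in more than these snoRNAs. Vector sequence took 949, 6994 and 107 RPM in AAV.miS1 libraries 1, 2 and 3, and 1.08, 0.188 and 1.90 RPM in vehicle. The summed level of 7 immune microRNA genes was 602, 4314 and 638 RPM in AAV.miS1 and 1161, 783 and 701 RPM in vehicle. Fragments of the 10 neuron marker mRNAs summed to 496, 29.9 and 368 RPM in AAV.miS1 and 113, 114 and 171 RPM in vehicle, none of the 10 at 0 everywhere. The 8 neuronal microRNA genes summed to 94805 to 109674 RPM in AAV.miS1 and 85308 to 148773 RPM in vehicle. Library 2 thus had the most vector, the most immune microRNA and the fewest mRNA fragments, and libraries 1 and 3 the most mRNA fragments. The part of these differences in the snoRNA result was not tested.

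Other genes of the imprinted region were read in the same libraries. SNRPN, which shares its promoter with the snoRNA host transcript and encodes a splicing protein, stood at 343, 629 and 452 RPM in AAV.miS1 and 393, 431 and 508 RPM in vehicle small RNA, so the groups overlapped, also without AAV.miS1 library 2. Of the 7 genes of the region outside both clusters that were tested, 0 were called with all libraries and the median log2 fold change was 0.23. Without AAV.miS1 library 2, 5 of 8 were called lower: SNORD64 at -2.15, SNORD109A and SNORD109B at -1.98, SNORD107 at -1.66 and SNRPN at -1.58 on the log2 scale in edgeR, beside 6.31% of all genes called and 5.91% lower. These values are on the TMM scale of that fit, on which the snoRNA genes lay lower than with library totals.

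In Study 2 small RNA, the families made up most of the few counts there were. SNORD115 took 34.9%, 37.7% and 33.3% of gene counts in intmiS1 libraries 1, 2 and 3, on 568, 1053 and 746 counts. It took 52.3% and 55.6% in empty capsid libraries 1 and 3, on 236 and 193 counts, and both empty capsid libraries were above all 3 intmiS1 libraries. SNORD116 took 29.6%, 34.5% and 33.0% in intmiS1 and 20.2% and 19.6% in empty capsid 1 and 3, on 91 and 68 counts, so here intmiS1 was the higher group. The ratio of SNORD115 to SNORD116 was 1.18, 1.09 and 1.01 in intmiS1 and 2.59 and 2.84 in empty capsid 1 and 3. Empty capsid 2 had 0 sense counts of either family, which allows a share of up to 0.00108% (3 counts of its total, counting error only).

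These shares are of unusual tables. STAR's gene counts leave out reads that map to several places, which numbered 1869, 2735 and 3988 in intmiS1 and 572 and 853 in empty capsid 1 and 3, more than or close to the gene counts themselves. They also leave out reads that overlap several genes, 1606, 1958 and 1882 in intmiS1 and 252 and 167 in empty capsid 1 and 3. Of the 107 genes, 78 were at 0 in all 6 libraries, among them 21 of the 30 highest genes of Study 1 small RNA. The 4 near-equal SNORD116 genes that led Study 1 are among those at 0. The families' shares in Study 2 therefore describe only reads placed uniquely and overlapping a single gene. They are not on the scale of the Study 1 shares.

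A handful of genes carried the families in Study 2. SNORD116 ENSMMUG00000059952 had 288, 753 and 536 counts in intmiS1 and 56, 0 and 36 in empty capsid, or 17.7%, 26.9% and 24.0% of gene counts against 12.4%, 0% and 10.4%. It was the highest gene of every intmiS1 library and the fifth of these families in Study 1. SNORD115 ENSMMUG00000050248 had 251, 571 and 309 counts in intmiS1 and 177, 0 and 137 in empty capsid, or 15.4%, 20.4% and 13.8% against 39.2%, 0% and 39.5%. It was the highest gene of empty capsid 1 and 3, although 34 genes of these families ranked above it in Study 1. SNORD115 ENSMMUG00000024201 followed with 206, 286 and 217 counts against 37, 0 and 37. These 3 genes held 71.0% to 82.6% of the families' counts in the 5 libraries that had any. The opposite order of ENSMMUG00000059952 and ENSMMUG00000050248 in the treatment groups, empty capsid 2 aside, was the main contrast in these libraries.

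**Figure D3:**
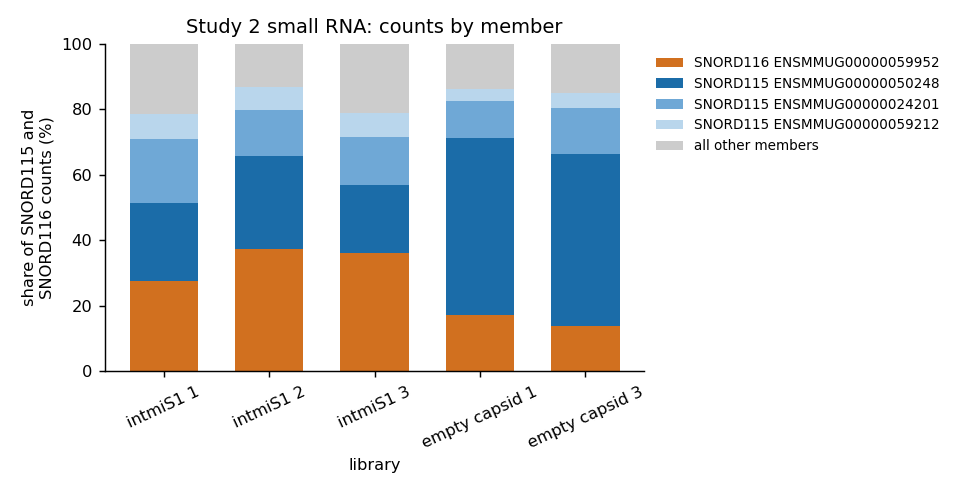
Share of the summed SNORD115 and SNORD116 counts (percent, y axis) held by the 4 highest genes and by all others in the 5 Study 2 small RNA libraries with sense counts (x axis). SNORD116 ENSMMUG00000059952 is the largest segment in the intmiS1 libraries and SNORD115 ENSMMUG00000050248 in empty capsid 1 and 3.

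With all 6 libraries, no gene of the families differed between intmiS1 and empty capsid. Only 22 genes passed the filter, 11 of them SNORD115 or SNORD116, and edgeR called 0 of these, 0% of all tested, with 0 unadjusted and 0 in DESeq2. Without empty capsid 2, 27 genes were tested and 5 were called, 18.5% (14.8% higher and 3.7% lower), among them 3 of 12 of the families. SNORD116 ENSMMUG00000059952 rose by 1.00 (SE 0.30, adjusted p = 0.0187) on the log2 scale in edgeR. SNORD116 ENSMMUG00000064725 rose by 2.19 (SE 0.76, adjusted p = 0.0259 in edgeR), on 40, 39 and 32 counts against 2 and 1. SNORD115 ENSMMUG00000050248 fell by 1.25 (SE 0.29, adjusted p = 0.00145 in edgeR). With empty capsid 1 and 3 averaged into 1 sample as well, an alternative chosen after the data were seen, 0 of 14 of the families were called. That fit has a single control sample, so its count of 0 says little about the 3 calls. As shares of a closed total, 1 gene's rise lowers the others, and that comparison rests on 2 control libraries that resemble each other.

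In DCN total RNA, the 2 families were minor and SNORD116 was above SNORD115. Vehicle DCN libraries of Study 1 held 28, 0, 47 and 26 counts of SNORD115 and 47, 0, 75 and 58 of SNORD116, the library at 0 being the shallow one. That gave SNORD115 12.3, 13.7 and 8.73 RPM and SNORD116 20.7, 21.8 and 19.5 RPM in the 3 deeper libraries, and a count of 0 in the shallow library allows up to 34.2 RPM. The 6 AAV.miS1 libraries had 0.416, 10.7, 11.4, 1.70, 8.14 and 7.81 RPM of SNORD115 and 6.24, 20.5, 20.7, 10.9, 13.9 and 15.1 RPM of SNORD116. Libraries 1 and 4 were the lowest for both families, and of the other 4, libraries 2 and 3 lay inside the range of the 3 deeper vehicle libraries for SNORD115 and libraries 5 and 6 under it. Neuron marker mRNAs summed to 29.3 and 586 RPM in AAV.miS1 libraries 1 and 4, 796 to 3715 RPM in the other 4 and 2268 to 4004 RPM in vehicle. Microglia and macrophage markers summed to 3331 and 2458 RPM in libraries 1 and 4 and 373 to 764 RPM in vehicle. In bulk tissue, fewer neurons and less RNA per neuron cannot be told apart, and the part of either in the snoRNA levels was not tested.

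None of the 107 genes reached the filter on low counts in Study 1 DCN, so none was tested, while 1004 of 13383 genes were called in edgeR, 7.5% (7.22% higher and 0.284% lower). Of the other genes of the imprinted region, 6 were tested and 0 called, with a median log2 fold change of -0.85 beside 0.02 over all genes, and 0 were called by DESeq2. Under 0.05 unadjusted were 2 of the 6, beside 3592 of 13383 genes. SNRPN stood at 48.0 to 179 RPM in AAV.miS1, against 160 to 211 RPM in vehicle, and had a log2 fold change of -0.73 (SE 0.28, adjusted p = 0.127 in edgeR). NDN, an imprinted gene of the region expressed in neurons, had -0.60 (SE 0.38, adjusted p = 0.317 in edgeR). UBE3A, a ubiquitin ligase made from the maternal copy in neurons, had 0.08 (SE 0.13, adjusted p = 0.722 in edgeR). Without AAV.miS1 library 5, SNRPN fell by 0.91 (adjusted p = 0.0317 in edgeR), 1 of the 6, in a fit that called 2300 of 13267 genes, 17.3%.

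In Study 2 DCN, empty capsid libraries held 352 to 544 counts of SNORD115 and 520 to 734 of SNORD116. SNORD115 stood at 12.4, 12.4 and 17.3 RPM in empty capsid and SNORD116 at 18.4, 18.2 and 20.3 RPM. StufferOnly libraries had 11.6, 7.30 and 7.42 RPM of SNORD115 and 17.7, 17.4 and 12.3 RPM of SNORD116, lower than the lowest empty capsid library in all 3 for both families. The counting intervals still overlapped those of empty capsid in StufferOnly library 1 for both families and in library 2 for SNORD116. The miSCA7Stuffer libraries had 14.9, 7.02 and 5.39 RPM of SNORD115 and 21.2, 14.4 and 14.3 RPM of SNORD116, with library 1 inside or above the empty capsid range and libraries 2 and 3 under it. The intmiS1 libraries had 22.4, 16.1 and 12.5 RPM of SNORD115 and 29.0, 23.9 and 21.1 RPM of SNORD116. SNORD116 was thus above the empty capsid range in all 3 intmiS1 libraries, although the counting intervals of libraries 2 and 3 overlapped those of empty capsid, whereas SNORD115 overlapped it. All 3 comparisons use the same 3 empty capsid libraries.

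Markers of several cell types differed between these libraries too. Neuron marker mRNAs summed to 2979 to 3900 RPM in empty capsid, to 2802, 1364 and 1336 RPM in StufferOnly, to 3265, 477 and 489 RPM in miSCA7Stuffer and to 3632, 2429 and 3384 RPM in intmiS1. Microglia and macrophage markers summed to 339 to 418 RPM in empty capsid, 1328 to 1775 RPM in StufferOnly, 305, 1132 and 1141 RPM in miSCA7Stuffer and 348 to 515 RPM in intmiS1. The lowest snoRNA libraries of miSCA7Stuffer and StufferOnly, 2 and 3 of each, had neuron sums under all empty capsid libraries. So did the remaining StufferOnly library, at 2802 RPM, whose snoRNA levels were also under empty capsid, with overlapping counting intervals. The neuron sum of intmiS1 library 2, 2429 RPM, was under empty capsid too, but above those of libraries 2 and 3 named before. Its snoRNA levels were not low, but it was counted in another way than empty capsid. Counting and treatment cannot be told apart for that library. Granule cell markers, which are neuronal, summed to 51.5 to 73.7 RPM in empty capsid. They summed to 101 to 1149 RPM in miSCA7Stuffer and 52.9 to 401 RPM in StufferOnly. All 6 lay above 0 in both comparisons, with medians of 4.22 and 2.30 on the log2 scale. edgeR called 0 of 6 in either, beside 0.00479% and 15.4% of all genes. In miSCA7Stuffer 5 of 6 were under 0.05 unadjusted, beside 4808 of 20882 genes. DESeq2 called 5 there, beside 7.04% of all genes. In StufferOnly both counts were 0. In StufferOnly, edgeR called 4 of 6 oligodendrocyte markers lower, beside 3.81% of all genes. It called 5 of 6 microglia and macrophage and 4 of 6 T cell markers higher, beside 11.6% of all genes. The part of these in the snoRNA levels was not tested.

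**Figure D4:**
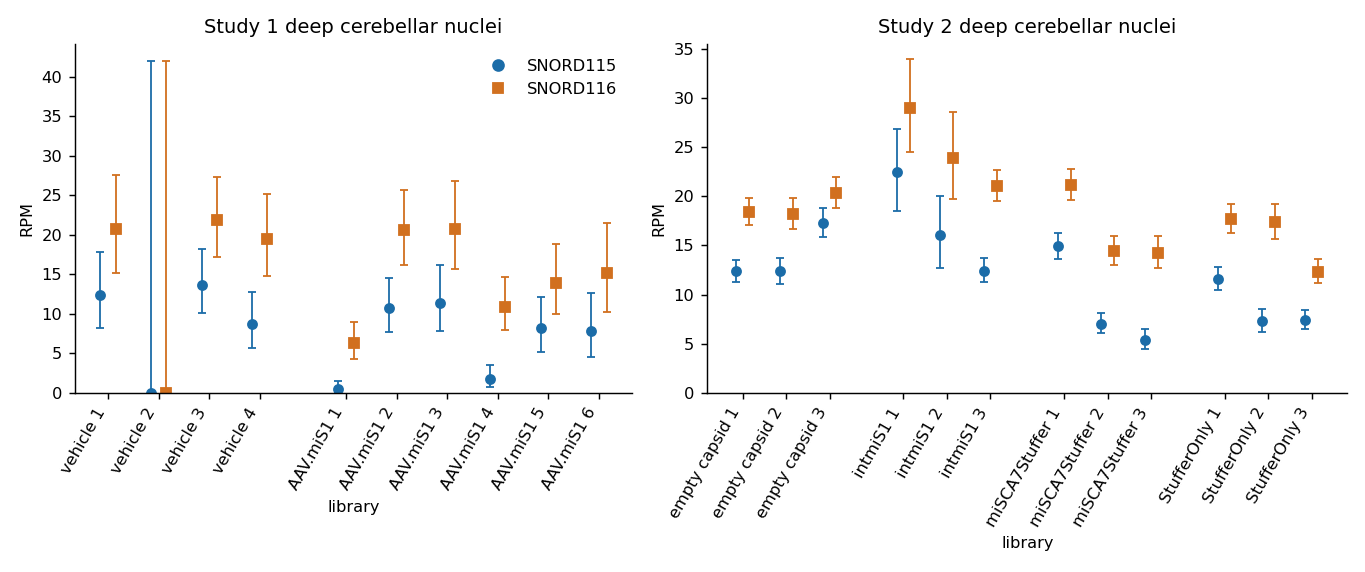
Summed RPM (y axis) of SNORD115 (circles) and SNORD116 (squares) in each DCN total RNA library (x axis), Study 1 on the left and Study 2 on the right, with exact 95% Poisson intervals for counting error. SNORD116 lies above SNORD115 in every library with counts, AAV.miS1 1 and 4 are the lowest of Study 1 with counts, and the long bars of vehicle 2 show its shallow depth.

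The ratio of SNORD115 to SNORD116 was below 1 in all 21 DCN libraries with counts, from 0.0667 to 0.851, and above 1 in all 11 small RNA libraries with sense counts. Genes that led one library type were not those that led the other. The highest in DCN, SNORD115 ENSMMUG00000032788 and SNORD116 ENSMMUG00000037295, had mean counts of 42.1 and 36.2 over the 22 DCN libraries but 0.0198 and 0 RPM in Study 1 small RNA, where they ranked 104 and 107. Of the next 4 in DCN, SNORD116 ENSMMUG00000059869 and SNORD115 ENSMMUG00000032805 ranked 97 and 100 in small RNA and SNORD116 ENSMMUG00000050691 ranked 71. Only SNORD116 ENSMMUG00000050681 was high in both, ranking 4 in small RNA. DCN counts were made without a length restriction, so they can include longer transcripts that overlap a snoRNA gene. The tables also differed in kind. STAR tables leave out reads that map to several places, and how Study 1 small RNA counted such reads is not stated. Among the libraries with a ratio, the STAR tables alone still lay below 1 in DCN and above 1 in small RNA. The ranks mix kinds of table, and the part of counting in the ratios and ranks was not tested.

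Against empty capsid, 1 SNORD116 gene fell in StufferOnly. ENSMMUG00000052916 had 14, 13 and 20 counts in empty capsid and 2, 0 and 1 in StufferOnly, and fell by 3.75 on the log2 scale (SE 0.79, adjusted p = 0.0225 in edgeR). It was the only one of 30 genes of the families tested (8 SNORD115 and 22 SNORD116) that was called, beside 3219 of 20882 genes, 15.4%, of which 3.81% of genes tested were lower. Its groups did not overlap, but it has few counts, and the call was lost in 5 of 6 fits that left out 1 library, where calls over all genes also dropped. Its log2 fold change ran from -4.51 to -3.36 over the 6 fits, and with a replicate block it was called at -3.91. The median log2 fold change was -0.48 for SNORD115 and -0.34 for SNORD116, beside 0.02 over all genes, and 25 of 30 genes lay below 0.

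Under 0.05 unadjusted were 3 of the 30, beside 6782 of 20882 genes, and the other 2 were both SNORD115. ENSMMUG00000065279, the gene of widest spread in Study 1 small RNA, had 62, 60 and 24 counts in empty capsid and 13, 5 and 1 in StufferOnly, with a log2 fold change of -2.82 (SE 0.96, adjusted p = 0.0800 in edgeR). Across the other groups it had 70, 8 and 11 counts in miSCA7Stuffer and 4, 7 and 6 in intmiS1, so it was uneven there too. ENSMMUG00000050248 had a log2 fold change of -2.18 (SE 0.80, adjusted p = 0.0974 in edgeR) in StufferOnly and -2.57 (SE 0.83, adjusted p = 0.146) in miSCA7Stuffer. DESeq2 called both in StufferOnly together with ENSMMUG00000052916, 3 genes of the families, all lower, beside 16.6% of all genes and 5.82% lower.

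The 6 genes of highest DCN count did not differ in StufferOnly. ENSMMUG00000032788 stood at 2.76, 2.46 and 4.17 RPM in empty capsid and 3.04, 1.89 and 2.15 RPM in StufferOnly, a log2 fold change of -0.48 (SE 0.31, adjusted p = 0.321 in edgeR). ENSMMUG00000037295 stood at 2.16, 2.21 and 1.91 RPM against 1.59, 2.48 and 2.40 RPM, a log2 fold change of -0.03 (SE 0.28). ENSMMUG00000050681 had the lowest value of the 6, -1.07 (SE 0.53, adjusted p = 0.201 in edgeR). The other 3 lay between -0.48 and 0.23.

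In miSCA7Stuffer, 0 of the 30 genes tested were called in edgeR, beside 1 of 20882 over all genes, 0.00479%, with 3 of the 30 and 4808 of all genes under 0.05 unadjusted. Their median log2 fold change was -0.37, beside 0.07 over all genes, and 24 lay below 0. DESeq2 called SNORD115 ENSMMUG00000050248 at -2.64 and SNORD116 ENSMMUG00000050681 at -1.65, 2 genes of the families beside 7.04% of all genes (4.66% higher and 2.39% lower). ENSMMUG00000050681 stood at 1.73, 1.72 and 2.35 RPM in empty capsid and 0.818, 0.528 and 0.667 RPM in miSCA7Stuffer, with no overlap. Library 1 of miSCA7Stuffer was unlike the other 2. Without it, edgeR called 32.4% of genes tested (16.8% lower), among which were SNORD115 ENSMMUG00000027740 at -3.59 and SNORD116 ENSMMUG00000060178 at -3.83.

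In intmiS1, 0 of 36 genes tested were called in edgeR, beside 0 of 21501 over all genes, 0%. One SNORD116 gene and 1832 of all genes were under 0.05 unadjusted, and DESeq2 called 47 genes, none of these families. Their median log2 fold change was 0.18, beside 0.01 over all genes. intmiS1 libraries 1 and 2 came as STAR tables, in which reads shared by overlapping genes are not counted, and library 3 and all other Study 2 DCN libraries as featureCounts tables, in which such reads count for each gene. SNURF, which overlaps SNRPN, shows what that does, with 0, 0 and 97.2 RPM in intmiS1 and 108 to 117 RPM in empty capsid. Kind of table and treatment cannot be told apart for intmiS1 libraries 1 and 2, which were the highest for SNORD116. Library 3, counted like the controls, had 21.1 RPM of SNORD116, above their 20.3, and 12.5 RPM of SNORD115, inside their range.

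**Figure D5:**
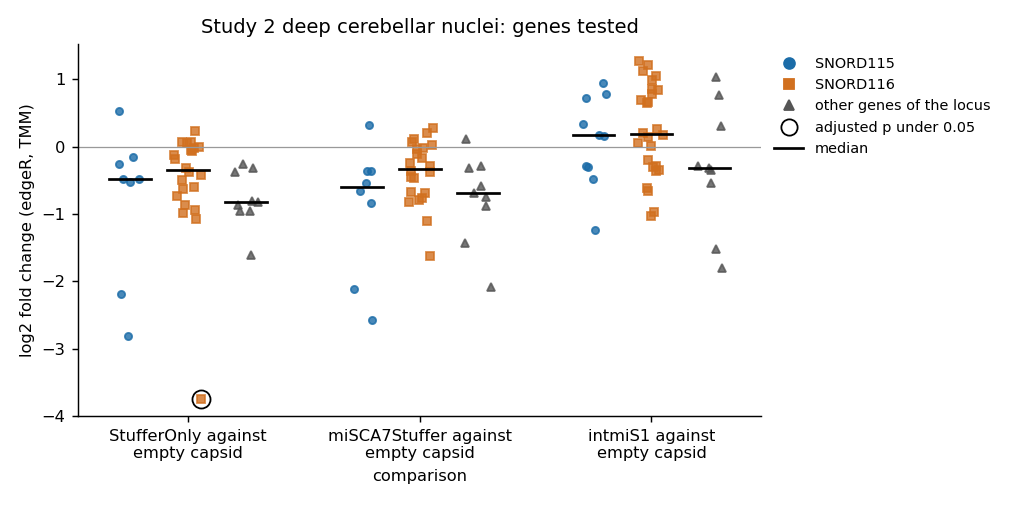
Log2 fold change against empty capsid (edgeR, y axis) of each SNORD115 gene, SNORD116 gene and other gene of the imprinted region tested in Study 2 DCN, by comparison (x axis), with bars at the medians and a ring at an adjusted p under 0.05. Most points lie below 0 for StufferOnly and miSCA7Stuffer, and 1 SNORD116 gene at -3.75 is ringed.

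Other genes of the imprinted region were also mostly lower in StufferOnly and miSCA7Stuffer, without passing the test in the main edgeR fit. In StufferOnly 0 of 9 were called in edgeR, 9 of 9 lay below 0 and the median was -0.82. Under 0.05 unadjusted were 6 of the 9, beside 6782 of 20882 genes. SNRPN stood at 296, 151 and 189 RPM against 351, 357 and 384 RPM in empty capsid, a log2 fold change of -0.86 (SE 0.37, adjusted p = 0.144 in edgeR). NDN stood at 26.2, 22.9 and 17.1 RPM against 36.8, 36.0 and 37.7 RPM, with -0.81 (SE 0.34, adjusted p = 0.134 in edgeR). UBE3A had -0.26 (SE 0.11, adjusted p = 0.145 in edgeR). DESeq2 called SNORD107 at -0.99 and SNORD108 at -1.66, C/D box snoRNAs of the same region, beside 16.6% of all genes.

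In miSCA7Stuffer 0 of 9 were called in edgeR, with 4 under 0.05 unadjusted, beside 4808 of 20882 genes, and a median of -0.69. SNRPN had -0.74 (SE 0.37, adjusted p = 0.255), NDN -0.32 (SE 0.33) and UBE3A -0.28 (SE 0.11, adjusted p = 0.184) in edgeR. DESeq2 called SNORD107 at -1.46 and SNORD108 at -2.11, beside 7.04% of all genes called and 2.39% lower. Without miSCA7Stuffer library 1, edgeR called 7 of the 9, all lower, among them SNRPN at -1.34 and NDN at -0.90. That fit called 32.4% of genes tested, 16.8% lower. In intmiS1 0 of 9 were called, with SNRPN at -0.55 (SE 0.36), NDN at -0.28 (SE 0.31) and UBE3A at -0.32 (SE 0.11, adjusted p = 0.576 in edgeR). Among genes flanking the imprinted region, CYFIP1, a regulator of actin and translation that is not imprinted, rose in StufferOnly by 1.75 (SE 0.39, adjusted p = 0.0246 in edgeR). It rose in AAV.miS1 DCN by 1.65 (SE 0.37, adjusted p = 0.0294 in edgeR).

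Not all snoRNA classes lay below 0 in the StufferOnly DCN. Of the other C/D box snoRNAs, 94 were tested, 2 rose (SNORD82 at 2.09 and SNORD10 at 1.92), beside 11.6% of all genes called higher, and the median was 0.41. Of H/ACA box snoRNAs, which guide pseudouridine formation, 84 were tested, 2 rose (SNORA26 at 1.58 and SNORA48 at 1.75), against the same 11.6%, and the median was 0.57. The 13 tested genes of the DLK1-DIO3 imprinted region had a median of -0.92 with 0 called. In miSCA7Stuffer the medians were 0.53, 0.59 and -1.17, with 0 called in edgeR. Differences between these classes were not tested.

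Genes of the C/D box particle lay on both sides of 0. In StufferOnly, FBL, which encodes fibrillarin, rose from 15.8 ± 0.203 to 28.5 ± 2.55 RPM (SD, n = 3 each), a log2 fold change of 0.78 (SE 0.13, adjusted p = 0.0181 in edgeR), and was the 1 of 4 core genes called, with 2 of the 4 below 0. Of 9 assembly factors, 5 lay below 0, while RUVBL2 rose by 2.17 and PIH1D1 by 0.86 on the log2 scale. Over all genes edgeR called 11.6% higher in StufferOnly. RUVBL2 stood at 355 to 384 RPM in empty capsid and at 18.2 and 14.4 RPM in the intmiS1 libraries with STAR tables, where kind of table and treatment cannot be told apart. In AAV.miS1, miSCA7Stuffer and intmiS1 DCN, 0 of the 4 core and 0 of the 9 assembly genes were called in edgeR. Over all genes edgeR called 7.5%, 0.00479% and 0% there, so the counts for miSCA7Stuffer and intmiS1 say little about these genes. DESeq2 called 1 core and 2 assembly genes in miSCA7Stuffer, beside 7.04% of all genes, and none of them in AAV.miS1 and intmiS1. Assembly genes summed to 484, 1655 and 1759 RPM in miSCA7Stuffer and 517 to 550 RPM in empty capsid. HTR2C was low in all groups, at 5.50 ± 1.39 RPM in empty capsid, and its log2 fold change was -1.07 (SE 0.81) in StufferOnly, -1.29 (SE 0.82) in miSCA7Stuffer and -1.43 (SE 0.78) in intmiS1, none called.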

How the data were processed

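Small RNA (TruSeq, per the labels' protocols) and ribosome-depleted total RNA (directional libraries) had been sequenced. The authors deposited raw read counts for each gene, and these were used unchanged. Reads were aligned with STAR 2.6.0c, per the submitters' processing notes. The 10 Study 1 DCN libraries, 2 Study 2 DCN libraries and the Study 2 small RNA libraries are STAR gene-count tables with 3 strand columns (reverse used for Study 1 DCN, unstranded for the 2 Study 2 DCN tables, sense for small RNA). The other 10 were counted with featureCounts, a read overlapping several genes counting in each, per the file headers. The counting program of the Study 1 small RNA tables is stated in no label or header, and neither is the genome build or annotation of any table. Symbols were matched by identifier for 24009 of 34847 genes.

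Depth ranged from 347 to 39792653 gene counts per library, and shares carry exact Poisson 95% intervals, which cover counting error only. Each comparison was fitted across all genes with edgeR 4.0.16 in R 4.3.3 (filterByExpr with a minimum count of 10 and total of 15, TMM, quasi-likelihood F test, Benjamini-Hochberg threshold 0.05). Study 2 small RNA used library totals. StufferOnly and miSCA7Stuffer shared a fit of 9 libraries, and intmiS1 used all 12. Standard errors are the log2 fold change over the root of F. Alternatives were DESeq2 1.42.0, other scalings, filters and strand columns, a replicate block and leaving out each library. Tables used Python 3.11.15 with pandas 2.3.3, scipy 1.17.1 and matplotlib 3.10.9. The edgeR fits, except that of Study 2 small RNA, were also run on simulated counts. The spread of those counts was set in advance and not taken from these libraries, so that run does not show how the fits perform here.

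Genes named are the 6 snoRNA genes of highest mean share in Study 1 small RNA, the 6 of highest DCN count, those called in a comparison, SNRPN, NDN and UBE3A, and up to 3 called genes of each other list. Others are said to be picked by their values. The genes and lists were chosen with earlier results of these data known. Where the labels do not tie samples to separate animals, p-values measure only the spread between these samples, which may be technical. Sums over the snoRNA genes were described and not tested.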

Additional observations from a re-analysis of the deposited data

Results flagged for a closer look

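In vehicle DCN of Study 1, vehicle library 2 had 0 RPM of SNORD116, far under the nearest of the other 3 libraries at 19.5 RPM. It holds 87741 gene counts, so that 3 counts would be 34.2 RPM, and a level like that of the others would not be detectable at this depth. Of 10 groups of 4 or more libraries by family looked at in this way, chance alone would single out about 1 in 20.

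The library labelled empty capsid 2 in Study 2 small RNA held 252 counts of these snoRNA genes in the reverse strand column, which the comparisons do not use, 84 of SNORD115 and 168 of SNORD116. The other 5 small RNA libraries of Study 2 held 0 there. These are 51.0 and 102 RPM of its reverse column, with SNORD116 above SNORD115 as in the DCN libraries.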

How the results depend on the processing

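The number of SNORD115 and SNORD116 genes called between AAV.miS1 and vehicle small RNA ran from 0 to 71 as single libraries were left out, the 71 without AAV.miS1 library 2. With that library out, and chosen after seeing the data, DESeq2 called 73, library totals 21 and upper quartile scaling 70. The shares of all genes called in these alternatives are not reported here, so the counts only describe the effect of the setting. Near-equal genes count separately in them. The 5 highest SNORD116 genes changed sign with the setting. ENSMMUG00000060178 and its 3 near-equal genes stood at -1.90 (DESeq2 without AAV.miS1 library 2), -0.20 (no filter), -0.25 (library totals), -0.58 (totals without library 2) and -1.95 (upper quartile without it), and from -2.0 to 0.53 with single libraries left out. ENSMMUG00000059952 stood at -1.93, -0.19, -0.26, -0.60 and -1.98, and from -2.02 to 0.53. SNORD115 ENSMMUG00000056819 stood at -2.11 (DESeq2 without library 2), -0.15 (totals), -0.77 and -2.17, and from -2.21 to 0.83. Mean shares moved with the denominator. SNORD115 took 42.0% of SNORD-symbol counts in AAV.miS1 and 47.2% in vehicle, and 7.45% of counts outside microRNA genes in vehicle. SNORD116 took 28.9% and 28.0% of SNORD-symbol counts and 3.75% and 4.48% of counts outside microRNA genes. With near-equal genes counted once, vehicle SNORD115 averaged 2.55%, and SNORD116 1.41% in AAV.miS1 and 1.60% in vehicle. With 1 library left out, SNORD115 ran from 2.93% to 5.42% in AAV.miS1 and 5.08% to 5.68% in vehicle, and SNORD116 from 2.27% to 3.02% and 2.92% to 3.64%.

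In Study 2 small RNA, 6 genes of the families were called with no filter, beside 23 of 7822 over all genes, 0.294%. With single libraries left out, 0 to 3 were called. Both families took 79.7%, 84.3% and 81.4% of SNORD-symbol counts in intmiS1 and 84.1% and 84.2% in empty capsid 1 and 3. Unstranded counts gave 74.5% and 68.8% of gene counts in intmiS1 2 and 3 and 0.0149% in empty capsid 2. In DCN, calls among the families and the other genes of the region changed with single libraries left out. They ran from 0 to 1 in AAV.miS1, 0 to 3 in StufferOnly, 0 to 9 in miSCA7Stuffer and 0 to 2 in intmiS1. The fits with the most such calls called 17.3%, 12.1%, 32.4% and 8.36% of all genes, in the same order. DESeq2 called 5 in StufferOnly and 4 in miSCA7Stuffer, beside 16.6% and 7.04% of all genes. The 2 in intmiS1, SNORD107 and SNURF, came without library 3, which left only STAR tables in that group. Kind of table and treatment cannot be told apart there. UBE3A in AAV.miS1 changed sign with totals (-0.023) and unstranded counts (-0.24). In StufferOnly, ENSMMUG00000037295 changed sign with totals (0.042) and ran from -0.16 to 0.17 with 1 library out, ENSMMUG00000059869 from -0.61 to 0.66 and ENSMMUG00000050691 from -0.98 to 0.011. In miSCA7Stuffer, ENSMMUG00000050691 ran from -0.71 to 0.11. In intmiS1, ENSMMUG00000032788 ran from -0.086 to 0.42, ENSMMUG00000037295 from -0.10 to 0.30, ENSMMUG00000059869 from -1.30 to 0.21, ENSMMUG00000032805 from -0.044 to 0.61 and ENSMMUG00000050681 from -0.72 to 0.053. The causes were not tested, and with 2 to 6 libraries a group the spread between libraries limits precision more than counting does, except in the shallow libraries.

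Shared replicate numbers were not taken as pairs, since no label says that they mark a shared animal or day. Same-numbered libraries had correlations of -0.22 to 0.18, which with 3 libraries a group can neither show nor exclude pairing. With the number as a replicate block, 0 genes of the families were called in both small RNA comparisons. Of the families and the other genes of the region, 0 were called in miSCA7Stuffer and intmiS1 DCN and 4 in StufferOnly. The StufferOnly block fit called 3299 of 20882 genes, 15.8%. The shares of all genes called in the other block fits are not reported here. ENSMMUG00000060178 and its near-equal genes stood at -0.89, ENSMMUG00000059952 at -0.90 and ENSMMUG00000056819 at -0.99 in Study 1 small RNA with the block, and ENSMMUG00000059869 at -0.031 in StufferOnly.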
